A study of Mus musculus with 20 samples.

Results

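The islet transcriptome of control (Ctrl) mice was described from the 6 Ctrl libraries among the 20 of the series, chosen by their titles (Ctrl-1 to Ctrl-6) in the raw count table. RNAseq was read from isolated pancreatic islets of 12-week-old mice that had been kept in culture before total RNA was collected. The series asks what β-cells need the mitofusins Mfn1 and Mfn2 for, and its other groups, b-Mfn1KO (4 libraries), b-Mfn2KO (5) and b-Mfn1/2DKO (5), lack either or both of these genes in β-cells through a Cre recombinase driven from *Ins1*. They were used here only for the spread of genes within a group. The labels give the controls as wild type, whereas the methods of the study pool C57BL/6N mice with the Cre alone, mice with *Mfn1* loxP/loxP alone and mice with *Mfn2* loxP/loxP alone, and which of these a library came from was not assigned here. Ctrl-1, Ctrl-2 and Ctrl-3 were female, and Ctrl-4, Ctrl-5 and Ctrl-6 were male. The study counts its controls as 6 mice, and p-values measure the spread between the 6 libraries.

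Pancreatic islets are clusters of endocrine cells, in which β-cells make insulin and amylin, α-cells glucagon, δ-cells somatostatin and PP cells pancreatic polypeptide. These hormones are made as precursors on the endoplasmic reticulum (ER), folded, cut by convertases and stored in dense-core granules that fuse with the plasma membrane on demand. In β-cells the trigger is glucose, whose oxidation in mitochondria closes potassium channels and opens calcium channels. Mitochondrial DNA (mtDNA) encodes core subunits of the respiratory chain.

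Depth ran from 12400687 counts in Ctrl-4 to 20329064 in Ctrl-2. Of 28632 genes in the table, 24795 had at least 1 count in Ctrl, and single libraries held 19872 to 20672 of them. Log2 levels of 10375 genes, which averaged 100 or more counts after TMM scaling (normalized counts), correlated across genes with Pearson r between 0.960 and 0.991 over the 15 pairs of libraries. Genes are not independent replicates, and the r describes these libraries only. Chi-square per gene between libraries was 9.57 at the lowest, so no pair looked like repeat reads of the same library. Separate animals differ by more than counting noise in any case, and nothing else was drawn from this value. The lowest r, 0.960, was between Ctrl-6 and Ctrl-1, and without Ctrl-6 the lowest was 0.972, but by median r with the others Ctrl-6 (0.975) was within the range of the rest and Ctrl-1 was lowest (0.973). Ctrl-6 stood apart in the number of departing genes: 50 genes were over 2-fold above the median of the other libraries and 54 over 2-fold below it, against 8 to 32 above and 8 to 44 below in the others. The main results that rest on Ctrl-6 are therefore given with and without it.

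Hormone precursors led the list of transcripts. Levels between genes are given per length, scaled to an equal total in each library (TPM), with SD over 6 libraries after ±. *Ins2*, an insulin gene, was the most abundant gene in each library, at 185355 TPM in the lowest library, 222834 at the median and 278312 in the highest. *Ins1*, the other insulin gene of the mouse, ran from 43257 to 72286 TPM with a median of 54729. For both, Ctrl-2 was lowest and Ctrl-5 highest. *Iapp*, the amylin precursor that β-cells release with insulin, held between 43273 and 52247 TPM (median 46455), a much narrower range. *Gcg*, the glucagon precursor of α-cells, had a mean close to that of *Iapp*, but spread from 22483 TPM in Ctrl-5 through a median of 43664 to 80553 in Ctrl-2. *Ppy*, which encodes pancreatic polypeptide, stood at 10831 ± 2672 TPM and was highest in Ctrl-5, and *Sst*, the somatostatin precursor, at 6726 ± 1769.8 TPM and was highest in Ctrl-2. *Pyy*, the related peptide YY, reached 3041 ± 336 TPM. The 6 markers of the endocrine cells were thus present in each library, and the islet label is borne out by them. Minor hormones lay far lower: *Ucn3*, a β-cell peptide that acts on δ-cells, at 419.6 ± 47.3 TPM, *Nucb2*, the nesfatin precursor, at 248 ± 49.1 TPM, and *Ghrl*, the ghrelin precursor of epsilon cells, at 5.89 ± 2.95 TPM.

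The promoters of the hormone genes are shown because these genes led the transcriptome, *Ins1* and *Iapp* together in β-cells and *Gcg* in α-cells. RefSeq windows of 300 bases on GRCm38.p6 matched 5 of the 6 markers, *Ins1*, *Iapp*, *Gcg*, *Sst* and *Ppy*. Those of *Ins1* (chr19:52264047-52264346, plus strand), *Iapp* (chr6:142298175-142298474, plus strand) and *Gcg* (chr2:62483604-62483903, minus strand) read as follows, with TAAT, the core letters of homeodomain sites, and CATCTG, an E-box, in capitals on either strand (ATTA and CAGATG on the other). In *Iapp* the letters ATTAAT hold TAAT on both strands, which overlap.
Ins1: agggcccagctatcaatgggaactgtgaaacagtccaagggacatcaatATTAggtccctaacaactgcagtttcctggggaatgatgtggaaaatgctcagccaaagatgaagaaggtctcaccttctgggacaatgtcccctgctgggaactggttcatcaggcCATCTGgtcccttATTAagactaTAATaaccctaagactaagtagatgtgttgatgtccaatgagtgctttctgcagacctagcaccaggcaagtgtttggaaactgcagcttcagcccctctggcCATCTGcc
Iapp: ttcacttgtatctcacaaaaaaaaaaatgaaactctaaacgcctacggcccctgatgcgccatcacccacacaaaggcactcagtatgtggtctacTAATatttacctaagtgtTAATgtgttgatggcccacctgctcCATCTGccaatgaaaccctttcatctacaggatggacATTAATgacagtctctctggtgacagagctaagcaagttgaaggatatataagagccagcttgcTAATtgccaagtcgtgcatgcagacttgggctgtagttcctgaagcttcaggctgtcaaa
Gcg: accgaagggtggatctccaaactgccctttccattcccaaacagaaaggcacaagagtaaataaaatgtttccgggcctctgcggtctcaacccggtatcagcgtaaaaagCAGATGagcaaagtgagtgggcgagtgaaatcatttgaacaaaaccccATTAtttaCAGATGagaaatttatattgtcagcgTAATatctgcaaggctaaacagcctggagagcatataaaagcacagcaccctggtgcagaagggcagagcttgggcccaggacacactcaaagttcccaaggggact
TAAT was found 3 times in *Ins1*, 5 times in *Iapp*, 2 times in *Gcg*, 1 time in *Sst* and 0 times in *Ppy*, and 58.0% of 32851 promoter windows of this length hold it. CATCTG was found 2 times each in *Ins1* and *Gcg*, 1 time in *Iapp* and 0 times in *Sst* and *Ppy*, and 17.2% of windows hold it. TATAAA stood 2 times in *Gcg* and 1 time in *Ppy* (13.6% of windows), and TGCAGC 1 time in *Ins1* (20.7% of windows). GTAAACA, the letters bound by forkhead factors, was in none of the 5 windows and in 3.65% of all. A match is a description of letters and not a binding site.

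**Figure D1:**
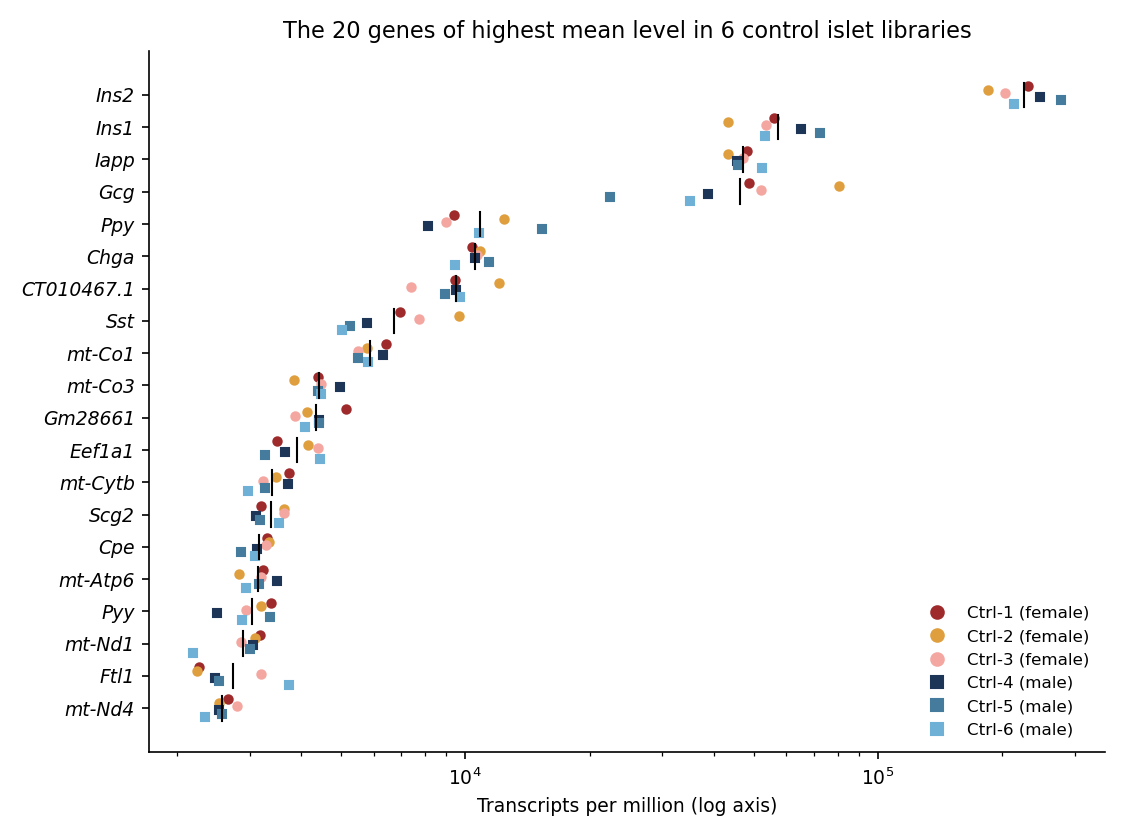
The 20 genes of highest mean level in Ctrl, in TPM on a log axis, with a point for each library (circles female, squares male) and a bar at the mean. *Ins2* lies at 226499 TPM, and *Gcg* spreads most among the hormones, from 22483 TPM in Ctrl-5 to 80553 in Ctrl-2.

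Beside hormones, the 20 most abundant genes by TPM included granule proteins, mtDNA transcripts and genes of translation and iron storage, some of them above *Sst* and *Pyy*. *Chga*, the granule protein chromogranin A, stood at 10561 ± 652 TPM, *Scg2*, secretogranin II, at 3382 ± 245 TPM, and *Cpe*, the carboxypeptidase that trims prohormones, at 3168 ± 186 TPM. Their biological CVs (the spread of normalized counts beyond counting noise, over the mean) were 0.106, 0.0369 and 0.0510. By this measure *Scg2* and *Cpe* varied less than the median gene (0.0628) and *Chga* more. The SDs in TPM, relative to their means, do not keep this order. Over the 89 genes averaging 10000 or more normalized counts the median CV was 0.108, close to the value of *Chga*. *Eef1a1*, the elongation factor that brings tRNA to the ribosome, reached 3901 ± 488 TPM and *Ftl1*, ferritin light chain, 2739.8 ± 599 TPM. Both are uncertain, since 39.7% and 80.9% of the 75-base stretches of their transcripts also lie in other genes, mostly pseudogenes. *CT010467.1*, annotated as ribosomal RNA on chromosome 17, stood at 9506 ± 1504 TPM and shares 65.9% of its stretches with the overlapping *Gm42418*. The 4 genes of that locus took up 1.11% ± 0.126 of counts, highest in Ctrl-2 and lowest in Ctrl-3.

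A few genes held much of the RNA. The top 10 genes of a library took up between 22.2% and 26.9% of its counts (median 23.4%), and 483 to 652 genes made up 50% of counts. Per length the RNA was more concentrated, with 20 genes making up 50% of TPM in Ctrl-5 and 71 in Ctrl-6. The 6 genes with a mean of at least 10000 TPM (*Ins2*, *Ins1*, *Iapp*, *Gcg*, *Ppy* and *Chga*) held 21.3% of counts, 45 genes between 1000 and 10000 TPM 7.83%, and 1014 genes between 100 and 1000 TPM 25.2%. The 7091 genes between 10 and 100 TPM held 40.6%. Protein-coding genes took up 97.2% ± 0.0823 of counts and lincRNAs 0.724% ± 0.115.

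The 22 listed hormone genes took up 20.6% ± 1.85 of counts (SD, n = 6) and 39.8% ± 2.75 of TPM. By library their share of counts was lowest in Ctrl-3 at 19.1%, 20.1% at the median and highest in Ctrl-5 at 23.7%, and without Ctrl-6 the mean was 20.9%. Single libraries had Wilson intervals (95%) of at most 0.0459 percentage points. Such intervals, and the floors given for counts of 0, cover counting error only, since PCR copies are not independent molecules. The insulin genes and the other hormones did not move together. *Ins1* and *Ins2* summed to 11.7% of counts in Ctrl-2, 14.5% at the median and 19.2% in Ctrl-5. The other hormones summed to 4.47% in Ctrl-5, 5.52% at the median and 7.55% in Ctrl-2. The library richest in insulin transcripts was therefore the poorest in those of the other hormones, and the reverse. Fewer cells of a type and less RNA per cell cannot be told apart in such values, and shares of a library add up to 100%, so a higher share of some genes lowers that of the rest.

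**Figure D2:**
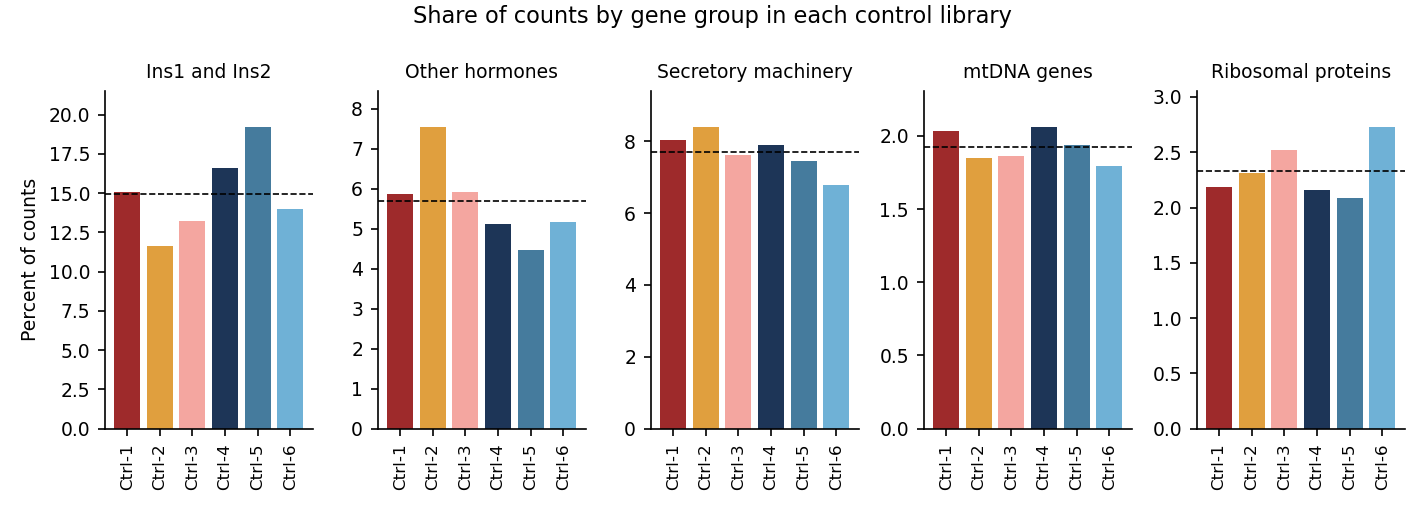
Percent of a library's counts in the insulin genes, the other hormones, the secretory machinery, mtDNA genes and cytosolic ribosomal proteins, with a bar for each Ctrl library and a dashed line at the mean. The insulin genes span 11.7% to 19.2%, and mtDNA genes only 1.80% to 2.06%.

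All 15 mtDNA genes of the table together held 1.92% ± 0.108 of counts and 3.17% ± 0.158 of TPM. Per library they were lowest in Ctrl-6 (1.80%), 1.90% at the median and highest in Ctrl-4 (2.06%), and intervals of single libraries were at most 0.0158 points wide. Relative to the mean the SD of this share was 5.596%, against 8.951% for the hormone list. Single mtDNA genes varied more than most, with a median biological CV of 0.135 over the 13 mRNAs against 0.0628 over all genes. Without Ctrl-6 these medians were 0.104 and 0.0574. Abundant genes varied more in general, with a median of 0.108 over the 89 genes averaging 10000 or more normalized counts. Transcripts for cytochrome c oxidase (complex IV) held 0.788% ± 0.0604 of counts, those for complex I 0.738% ± 0.0535 and those for ATP synthase (complex V) 0.120% ± 0.0108. *mt-Co1*, the catalytic subunit of complex IV, led at 5884 ± 407 TPM, followed by *mt-Co3* at 4424 ± 352, *mt-Cytb* of complex III at 3405 ± 299, *mt-Atp6* of ATP synthase at 3145 ± 238, and *mt-Nd1* and *mt-Nd4* of complex I at 2897 ± 365 and 2575 ± 153 TPM. *mt-Nd1* was lowest in Ctrl-6, at 2186 TPM. Several of these levels are uncertain: nearly all stretches of *mt-Co3* (99.9%) and *mt-Atp6* (99.5%), 61.5% of those of *mt-Nd4* and 39.8% of those of *mt-Co1* also occur in nuclear copies. The 7 nuclear copies on chromosome 1 held 0.310% ± 0.0309 of counts, led by *Gm28661*, all of whose stretches lie in *mt-Co2*, at 4347 ± 444 TPM. The 2 mtDNA ribosomal RNAs held only 0.0624% ± 0.0103. The 40 nuclear genes listed for oxidative phosphorylation summed to 0.812% ± 0.0662 of TPM, led by *Atp5b*, the β subunit of ATP synthase, at 661 ± 60.1 TPM.

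The 202 genes of the secretory machinery, hormones left out, held 7.70% ± 0.560 of counts, with Ctrl-6 lowest (6.77%), a median of 7.76% and Ctrl-2 highest (8.40%). Intervals were at most 0.0300 points wide, and without Ctrl-6 the mean was 7.88%. Granins, the proteins that condense granule content, held 1.90% ± 0.0828 and prohormone processing 1.52% ± 0.0896. ER folding held 1.42% ± 0.237, coats between ER and Golgi 0.916% ± 0.0872, exocytosis 0.741% ± 0.0278, ER entry 0.723% ± 0.0875 and granule membrane and zinc 0.543% ± 0.0241. The lists differed in spread. The median biological CV was 0.0630 in the exocytosis list and 0.0694 in prohormone processing, near the 0.0628 of all 10375 genes, 0.0914 in granule membrane and zinc and 0.116 in granins. It was 0.171 in ER folding (0.115 without Ctrl-6) and 0.136 in ER entry (0.101 without Ctrl-6). *Hspa5*, the major chaperone of the ER, ran from 673 TPM in Ctrl-6 through 858 to 1152 in Ctrl-2, and *Hyou1*, another ER chaperone, from 233 in Ctrl-6 to 529 in Ctrl-2. Of the 40 folding genes, 25 were highest in Ctrl-2, 10 in Ctrl-1 and 5 in Ctrl-4. Among the convertases *Pcsk2* stood at 1842 ± 210.3 TPM. Some list members do not do what the list is named for: *Peg3*, an imprinted transcription factor, and *Prss53*, a protease of unclear substrate, sat among the processing genes at 307 ± 26.1 and 1236 ± 119 TPM, and *Scgn*, a calcium sensor, among the granins at 285 ± 58.7 TPM.

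The table holds 1 count per gene, so isoforms of a gene were not analysed here and dominance was read between paralogs, as the log2 ratio of TPM of the leading gene over the next. Of 51 families, 43 had the same leader in 6 of 6 libraries, 23 had a leader with over 90% of the family's TPM and 5 a leader under 50%. The median leader held 84.3%. With the length of all exons merged in place of the main transcript, 48 families kept their leader. *Ins2* led *Ins1* in each library, by 1.99 ± 0.07 log2 units (1.48 with merged exons), with a range of 1.92 to 2.10. The insulin ratio was thus nearly fixed while the level of both genes moved.

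Families of glucose sensing and excitation differed in how far a single paralog led. *G6pc2*, the islet glucose-6-phosphatase, held 96.6% of the TPM of its family. Of the potassium channel closed by ATP, the receptor *Abcc8* held 99.9% against *Abcc9* and the pore *Kcnj11* 99.2% against *Kcnj8*. The glucose transporters were less one-sided, since *Slc2a2* stood at 158 ± 20.6 TPM and *Slc2a5*, a fructose transporter, at 96.6 ± 6.53 TPM (0.70 ± 0.23 log2 units). The calcium channel pores *Cacna1d* and *Cacna1c* differed by 0.15 ± 0.12 log2 units (*Cacna1d* higher in 5 of 6 libraries), but with merged exons *Cacna1d* was ahead by 1.302, so their balance depends on the length used. *Ldhb* led *Ldha* in 5 of 6 libraries by 0.55 ± 0.66 (1.19 with merged exons), the exception being Ctrl-6, where *Ldha* was 30.4 TPM against a median of 11.7.

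Granule release used some families with a clear leader and others without. *Cplx2*, a complexin that clamps fusion, held 99.7% of its family, *Rab27a*, a GTPase that tethers granules, 99.3%, and *Stx1a*, a syntaxin of the fusion complex, 97.5%. *Slc30a8*, the granule zinc transporter, held 79.5% of 10 transporters and *Pcsk2* 84.9% of 7 convertases, 2.98 ± 0.19 log2 units above *Pcsk1* (2.39 with merged exons). The synaptotagmins *Syt13* and *Syt7* stood at 519 ± 20.3 and 498 ± 32.6 TPM, a ratio of 0.06 ± 0.13, which became 2.54 with merged exons. The order of *Vamp8* over *Vamp2* (0.06 ± 0.06) and of *Rab3a* over *Rab3d* (0.35 ± 0.11) reversed with merged exons, to -0.64 and -0.06, so no leader is given for these.

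Among regulators, *Nkx6-1*, a β-cell identity factor, held 99.8% of its family's TPM and *Foxa2*, a forkhead factor, 87.4%. *Glp1r*, an incretin receptor, held 66.9% of its family, against 19.8% for *Gipr* and 13.3% for *Gcgr*. *Sstr3* held 96.7% of the somatostatin receptors. In mitochondria *Mfn2* exceeded *Mfn1*, the mitofusins that fuse outer membranes, by 1.13 ± 0.27 log2 units in 6 of 6 libraries, with the ratio between 0.94 and 1.60. *Cox6a1* held 90.4% of its family. *Gpx3* over *Gpx4*, glutathione peroxidases, changed places between libraries (4 of 6), with *Gpx3* between 267 and 783 TPM, and *Gpx4* is uncertain because of pseudogenes. Their ratio was 0.38 ± 0.56 log2 units, and 1.04 with merged exons.

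**Figure D3:**
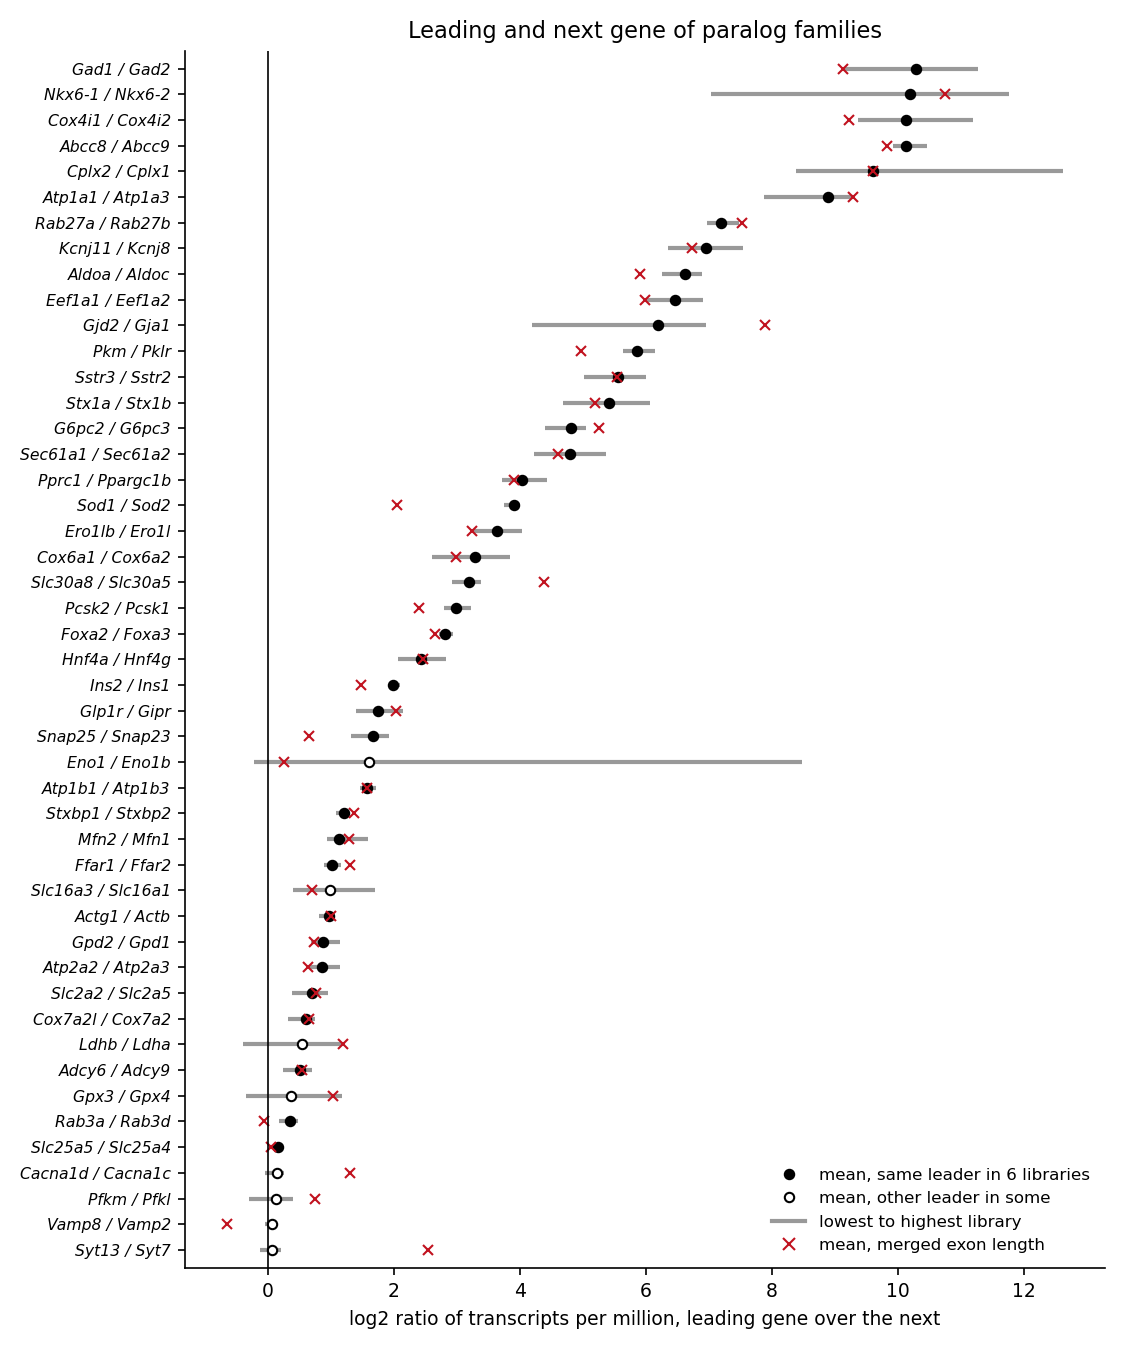
Log2 ratio of TPM of the leading gene over the next in paralog families. Points are means over 6 Ctrl libraries (filled where the leader is the same in all 6, open where it is not), grey lines run from the lowest to the highest library and crosses use merged exon lengths. The *Ins2* to *Ins1* point lies at 1.99, and the crosses of *Vamp8* over *Vamp2* and *Rab3a* over *Rab3d* lie below 0.

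Most genes varied little between the libraries. The median biological CV of the 10375 genes was 0.0628, the 90th percentile 0.158 and the 99th 0.447. Only 81 genes (0.781%) exceeded 0.5 and are called variable here. Without Ctrl-6 there were 56, of which 51 were among the 81. The count depended on the level and table used, with 131 at 50 or more normalized counts, 24 at 500 or more and 123 in the depth-normalized table of the authors. By library, 28 of the 81 were highest in Ctrl-4, 27 in Ctrl-6, 11 in Ctrl-1, 7 in Ctrl-2, 5 in Ctrl-3 and 3 in Ctrl-5, and 33 were lowest in Ctrl-3 and 30 in Ctrl-1. Exocrine genes that were high in Ctrl-4, and macrophage or connective tissue genes that were high in Ctrl-6, were among them, as were 5 genes of the sex chromosome list. Of the 81, 65 (80.2%) also had a CV over 0.5 within groups in the other 14 libraries, as did 103 (0.993%) of all 10375.

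**Figure D4:**
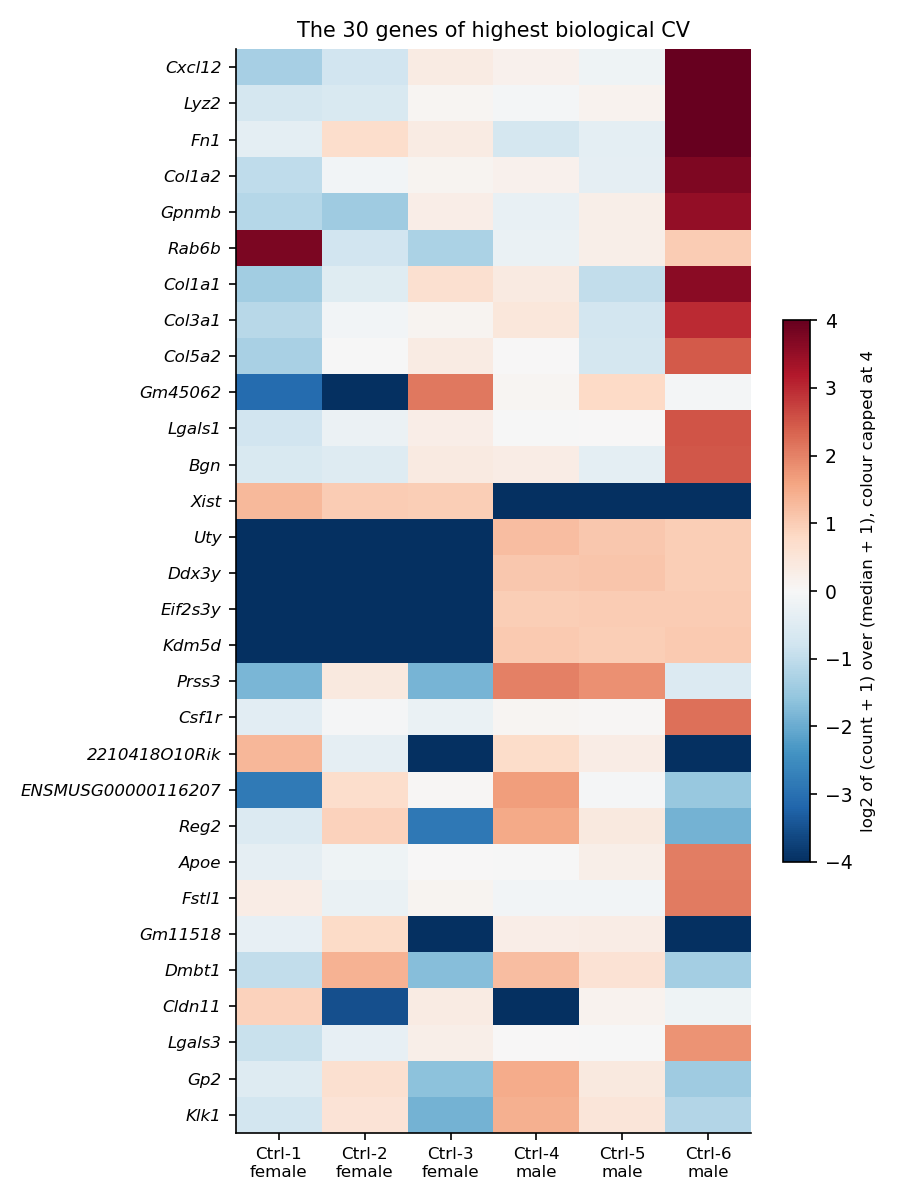
The 30 genes of highest biological CV, as log2 of normalized count over the median of 6 Ctrl libraries, 1 added to both and the colour capped at 4 either way. The upper block is darkest in Ctrl-6 (*Cxcl12* at 1168 against a median of 21.9 normalized counts), and *Xist* separates female from male libraries.

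Digestive enzymes of acinar cells, the exocrine cells around islets, were highest in Ctrl-4. Of 38 acinar genes in the table, 25 averaged 100 or more normalized counts, and 23 of the 25 were variable (21 without Ctrl-6), with a median CV of 0.660. Their summed share was lowest in Ctrl-3 (0.0527%) and Ctrl-6 (0.0824%), 0.122% in Ctrl-1, 0.219% in Ctrl-2, 0.223% in Ctrl-5 and highest in Ctrl-4 (0.324%), with intervals at most 0.00633 points wide. Of the 37 genes with any count 28 were highest in Ctrl-4. *Ctrb1*, a chymotrypsinogen and the most abundant of them, ran from 243 TPM in Ctrl-3 through 660.5 to 1413 in Ctrl-4. *Cela1*, an elastase, went from 109.8 to 393 TPM in the same libraries, and *Pnlip*, pancreatic lipase, from 20.2 to 146. The amylase *Amy2a5*, at 159 ± 106 TPM, and the trypsinogen *Prss3*, with the highest CV of the list (0.995), share sequence with neighbours and are uncertain. *Gp2*, a membrane protein of zymogen granules, had a CV of 0.802. Outside the list, *Klk1*, a kallikrein protease, and *Dmbt1*, a secreted scavenger receptor, were also lowest in Ctrl-3, at 66.2 and 54.4 normalized counts, and highest in Ctrl-4 (673) and in Ctrl-2 (478).

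The Reg family, secreted lectins of the exocrine pancreas, followed the acinar genes. It held 0.000686% of counts in Ctrl-3, 0.00290% at the median and 0.00863% in Ctrl-4, and 6 of its 7 genes were highest in Ctrl-4. *Reg1* ran from 9.10 to 67.5 TPM, *Reg2* from 3.54 to 69.8 and *Reg3b* from 0.713 in Ctrl-6 to 42.0 in Ctrl-4. The part that acinar RNA has in these values was not tested. Duct genes were steadier, at 0.162% ± 0.0215 of counts, and 0 of the 10 at 100 or more normalized counts were variable, although *Clu*, clusterin, reached a CV of 0.471.

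Macrophage genes stood out in Ctrl-6. The 16 listed genes summed to 0.00850%, 0.0105%, 0.0134%, 0.0114% and 0.0109% of counts in Ctrl-1 to Ctrl-5 and to 0.0721% in Ctrl-6, 6.49 times the median, with intervals at most 0.00292 points wide. Much of this was *Lyz2*, the lysozyme of myeloid cells, which made up 62.5% of the list in Ctrl-6 and 17.4% at the median. Without it, an alternative chosen after the values had been seen, Ctrl-6 lay at 2.93 times the median. Of the 16 genes 15 were highest in Ctrl-6, none was at 0 in all libraries, and 5 of the 7 at 100 or more normalized counts were variable (0 without Ctrl-6). *Lyz2*, the most abundant of the list, was at most 32.5 TPM in Ctrl-1 to Ctrl-5 and 620.5 in Ctrl-6. *C1qb*, a complement subunit, stood at a median of 21.2 and at 79.6 TPM in Ctrl-6, whereas its partner *C1qa* was as high in Ctrl-3 (92.6) as in Ctrl-6 (92.8). *Csf1r*, the receptor of a macrophage growth factor, went from a median of 2.33 to 11.7 TPM but is overlapped on the other strand by *Hmgxb3*. Outside the list *Gpnmb*, a membrane glycoprotein, *Apoe*, a lipid carrier, and *Lgals3*, galectin 3, were highest in Ctrl-6 as well, at 988, 8433 and 754 normalized counts against medians of 84.7, 2047 and 218.

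Genes of connective tissue moved with the same library. The 14 stellate and fibroblast genes held 0.00307% of counts in Ctrl-1, 0.00507% at the median and 0.0392% in Ctrl-6, 7.73 times the median, and 13 of them were highest there. Of the 5 at 100 or more normalized counts 3 were variable (1 without Ctrl-6), as were 5 of 15 collagen and basement membrane genes (1 without Ctrl-6). The most abundant, *Col1a2* of type I collagen, was at a median of 2.77 TPM and 38.4 in Ctrl-6. *Col1a1* stood at 2.43 and 32.0, *Col3a1* at 2.90 and 23.5, and *Acta2*, the smooth muscle actin of activated stellate cells, at 0.645 and 23.7 TPM. *Pdgfrb*, a receptor of these cells and pericytes, was only 4.88 TPM in Ctrl-6 against a median of 2.61. The 25 collagen and basement membrane genes held 0.0377% at the median and 0.0871% in Ctrl-6. Some of them are also in the stellate and fibroblast list, so these lists are not independent. *Fn1*, fibronectin, had 732 normalized counts in Ctrl-6 against a median of 32.5, while the vascular basement membrane gene *Col4a1* ranged only from 22.0 to 33.1 TPM. The largest CV of all belonged to *Cxcl12*, a chemokine of stromal cells, at 2.23, with 8.12 normalized counts in Ctrl-1, a median of 21.9 and 1168 in Ctrl-6. Without Ctrl-6 its CV was 0.375. *Lgals1*, galectin 1, *Bgn*, the proteoglycan biglycan, *Fstl1*, a secreted glycoprotein, and *Col5a2*, a minor collagen, were highest in Ctrl-6 too, with CVs of 1.15, 1.13, 0.860 and 1.17. These CVs rest on Ctrl-6, where the genes had 364.7, 382.1, 490.6 and 416.8 normalized counts against medians of 62.7, 67.7, 116.0 and 76.1.

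Some genes were read almost only there. Each of *H19* (65 counts), *Serpinf1* (67), *Dpep1* (53), *Ogn* (99), *Ccn5* (80), *Ptx3* (102), *Sfrp2* (52), *Hp* (217) and *Myl9* (105) had at least 50 counts in Ctrl-6 and at most 3 in each other library. *Ogn* encodes a matrix proteoglycan, *Sfrp2* a secreted inhibitor of Wnt signals, *Myl9* a smooth muscle myosin light chain, *Hp* haptoglobin and *H19* an imprinted long noncoding RNA. No other library had a gene of that kind. In reverse, *Rn7s2* had 0 counts in Ctrl-1 (the floor of 3 counts is 3.05 normalized counts) against a median of 691, and *Gm47204* had 0 in Ctrl-6, but both share nearly all their sequence with other genes and are uncertain.

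Of 16 cell type lists, 3 had a highest library over 2 times the median, macrophage, stellate and fibroblast, and B and plasma cell, and all 3 were highest in Ctrl-6. Without Ctrl-6 the count was 0, and without Ctrl-2 or without Ctrl-5 it was 5. B and plasma cell genes reached 0.00172% of counts there against a median of 0.000397%, with *Igkc*, the κ light chain, at 10.5 TPM and *Cd79a*, part of the B cell receptor and the most abundant of the list, at 3.93 ± 1.61 TPM over all libraries. T cells were near absent: *Cd3d*, *Cd3e*, *Cd8a*, *Nkg7* and *Gzma* had 0 counts in all 6 libraries, which at a floor of 3 counts in Ctrl-4, the shallowest, allows a share of up to 0.0000242% for each, and the most abundant of the 9 listed, *Il7r*, was at 0.535 ± 0.240 TPM. Of blood, the band 3 gene *Slc4a1* was at 0 and *Hbb-bs*, a β-globin, at 3.69 ± 1.52 TPM. Fat cell genes were near the floor, with *Retn* and *Cfd* at 0 and *Fabp4*, which endothelial cells also express, at 10.3 ± 4.36. Mesothelial genes held 0.00469% ± 0.00189 of counts, all but a little of it in *Msln*, mesothelin, at 39.1 ± 16.0 TPM. Endothelial genes held 0.0323% ± 0.00494 of counts, with a median CV of 0.159 and 12 of 16 genes highest in Ctrl-5, led by *Esm1* at 55.1 ± 10.1 TPM. The Schwann cell list held 0.0112% ± 0.000553, nearly all in *Mbp*, myelin basic protein, at 285 ± 20.1 TPM, while *Sox10*, a defining factor of that lineage, was at 0.276 ± 0.122 TPM, so this share is that of 1 gene.

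Within the endocrine cells, α and δ genes moved more than β genes. The 11 α-cell genes held 1.51% of counts in Ctrl-5, 2.79% at the median and 4.93% in Ctrl-2, and 7 of them were highest in Ctrl-2. *Ttr*, transthyretin, ran from 1029 to 2410.5 TPM and *Irx2*, a factor that marks α-cells, from 8.77 to 22.6, each between the same libraries as *Gcg*. The 9 δ-cell genes held 0.239% in Ctrl-6, 0.303% at the median and 0.434% in Ctrl-2, and of these *Pdyn*, the dynorphin precursor, was variable (CV 0.526) with a different order, highest in Ctrl-1 at 156 TPM and lowest in Ctrl-3 at 47.2. The PP list (0.395% ± 0.0879) was highest in Ctrl-5 like *Ppy*, its most abundant gene, although *Pyy*, the next, was as high in Ctrl-1 (3373 TPM) as in Ctrl-5 (3359.7). The median CV was 0.244 in the α-cell list, 0.243 in the δ-cell list and 0.114 in the 15 β-cell genes, and 0 genes of the α-cell and β-cell lists were variable.

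**Figure D5:**
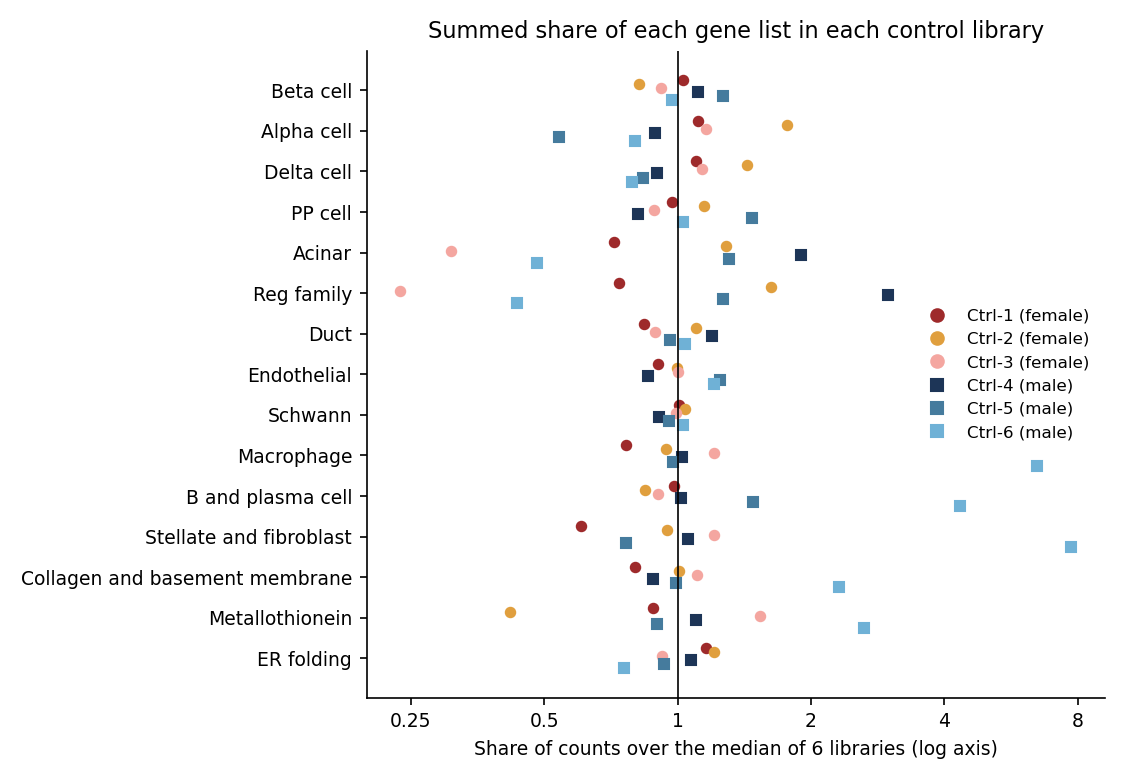
Summed share of counts of 15 gene lists in each Ctrl library over the median of the 6 libraries, on a log axis (circles female, squares male). Macrophage, stellate and fibroblast, and B and plasma cell genes lie at 6.49, 7.73 and 4.34 times the median in Ctrl-6, and acinar and Reg genes are highest in Ctrl-4.

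Genes that respond to metals, oxygen and stimuli varied in their own ways. The metallothioneins *Mt1* and *Mt2*, which bind zinc, stood at 399 and 218 TPM at the median, were lowest in Ctrl-2 (178 and 86.3) and highest in Ctrl-6 (1015 and 641), *Mt2* being uncertain because it shares sequence. Both were variable, with CVs of 0.549 and 0.651, and neither was without Ctrl-6. *Egr1*, an immediate early factor, was the only variable one among the 18 genes of its list at 100 or more normalized counts (CV 0.667), with 131 normalized counts in Ctrl-3, a median of 216 and 648 in Ctrl-5. Of the 20 hypoxia genes at that level only *Ldha*, the lactate dehydrogenase A chain, was variable (0.542; none without Ctrl-6), yet 13 of all 25 listed were highest in Ctrl-1. *Vegfa*, the vascular growth factor, was the most abundant of them at 1522 ± 87.5 TPM with a CV of 0.0666. Genes of the amino acid response leaned to Ctrl-1, which was the highest library for 22 of 27, among them *Atf4*, its main factor, at 500.2 TPM against a median of 368. Cytosolic ribosomal protein genes leaned to Ctrl-6, highest there for 68 of the 83 with counts, with 2.73% of counts against a median of 2.25%.

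Single genes outside these lists were high or low in particular libraries. *Rab6b*, a GTPase of Golgi traffic, had 522 normalized counts in Ctrl-1 and between 14.9 and 76.0 in the others. *Gm45062* (2.21 in Ctrl-2 and 329.8 in Ctrl-3), *2210418O10Rik* and *Gm11518*, both at 0 in Ctrl-3 and Ctrl-6, each share 98.8% or more of their sequence with another gene and are uncertain. Genes near the targeted and driver loci were looked at after their values had been seen. Within 5 Mb of *Mfn2* on chromosome 4, 7 of 70 genes averaging 20 or more normalized counts had a CV over 0.5, against 279 (2.12%) of all genes at that level, and 11 departed over 2-fold from the median of the others in Ctrl-1 and 5 in Ctrl-6. At 100 or more normalized counts, the level used elsewhere, only 1 of 52 genes there was variable (1.92%, against 0.781% of all), with 3 departing in Ctrl-1 and 1 in Ctrl-6. Most of the 7 were zinc finger genes or a pseudogene of one, and some of the rest were highest in Ctrl-6. *Angptl7*, of the angiopoietin-like family, was also among the 7, with 78.2 normalized counts in Ctrl-1, 274 in Ctrl-6 and up to 1010.2 in Ctrl-4. *Zfp979*, a zinc finger gene that shares sequence and is uncertain, had 76.2 in Ctrl-1 and at most 33.6 elsewhere. *Mfn2* itself was highest in Ctrl-1 and Ctrl-6, at 42.0 and 40.4 TPM, against 27.8 to 32.8 in the others. Within 5 Mb of *Ins1* 0 of 34 genes had such a CV, and of *Mfn1* 1 of 48, *Cldn11*, a tight junction claudin. It had only 17.2 normalized counts in Ctrl-4 and few in Ctrl-2, but 267 to 571 in the other libraries. The labels do not tell which of the pooled control genotypes a library carries, and the part of genotype in this was not tested.

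Between 3 female and 3 male libraries, 8 of 24795 genes (0.0323%) were called by edgeR (adjusted p below 0.05, over 1.5-fold), 3 of them higher in female (0.0121%) and 5 in male libraries (0.0202%). The 5 were on the Y chromosome and had 0 counts in the female libraries. Against a floor of 3 counts per library, *Ddx3y*, an RNA helicase, was at least 396-fold higher, *Eif2s3y*, of translation initiation, at least 277-fold, the histone demethylases *Kdm5d* and *Uty* at least 179-fold and 175-fold, and *Gm29650* at least 12.3-fold, though DESeq2 did not call *Gm29650*. *Xist*, the RNA that silences an X chromosome, had 15200.2, 12305 and 12199.6 normalized counts in the female libraries and 7.39, 6.08 and 64.0 in Ctrl-4, Ctrl-5 and Ctrl-6, so the sex labels were borne out, with the highest male value in Ctrl-6. The X-linked demethylase *Kdm6a* was higher in female libraries by 0.83 ± 0.08 log2 units (± SE, edgeR adjusted p = 0.000103; 3 of 3 above each male library). *Gm20431* was at least 6.05-fold higher in female libraries, but it overlaps *Ube2v1*, shares 97.0% of its stretches with it and was not called by DESeq2. *Eif2s3x*, uncertain because of shared sequence, differed by 0.49 ± 0.08 log2 units (edgeR adjusted p = 0.0423), under the fold threshold, and *Kdm5c* missed the threshold at 0.46 ± 0.08 (adjusted p = 0.0714). The count depended on single libraries: it was 34 without Ctrl-1, 164 without Ctrl-3, 55 without Ctrl-4, 50 without Ctrl-5 and 128 without Ctrl-6, and the same 8 genes were among the calls each time. On simulated counts the test recovered large differences, but it also called more unchanged genes than the 8 called here, so calls other than the large sex-linked ones are weak evidence.

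Outside the sex chromosome list no listed gene was called by edgeR, where 1403 of all genes were at an unadjusted p under 0.05 and DESeq2 called 10 genes with 667 at that level. Of 11 α-cell genes 7 had such a p and 9 were higher in female libraries, with a median difference of 0.54 log2 units, and of 9 δ-cell genes 5 had one, with *Rbp4*, a retinol carrier of δ-cells, nearest to a call at 0.56 ± 0.10 (adjusted p = 0.0975 in edgeR). The median over all genes was 0.00. Macrophage genes went the other way, lower in female libraries in 16 of 16 with a median of -1.01, but that rested on Ctrl-6, a male library: without it, an alternative chosen after the values had been seen, 5 of 16 were higher in female libraries and the median was -0.23. Acinar genes were also lower in female libraries, with 5 of 37 higher, 6 at an unadjusted p under 0.05 and a median of -0.66 (-1.09 without Ctrl-6), as were Reg genes, with 1 of 7 higher and a median of -0.66 (-1.14 without Ctrl-6). Their summed share was 0.131% ± 0.0835 in female and 0.210% ± 0.121 in male libraries for the acinar list (exact permutation p = 0.4), and the part of these cells in other differences between the sexes was not tested. In ER folding 39 of 40 genes were higher in female libraries, by a median of only 0.20, and 8 had an unadjusted p under 0.05 (34 of 40 and a median of 0.07 without Ctrl-6). Other lists leaned the same way. Of the coats between ER and Golgi 38 of 41 genes were higher in female libraries (median 0.14). In ER entry it was 36 of 43 (0.15) and in the amino acid response 21 of 27 (0.20). Without Ctrl-6 these medians were 0.06, 0.06 and 0.12, with 35 of 41, 32 of 43 and 22 of 27 genes higher. Over all 24276 genes the median without Ctrl-6 was 0.02, with 12981 higher in female libraries. The female libraries were not alike. The amino acid response was lowest of all in Ctrl-3, at 0.288% of counts, against 0.314% to 0.330% in male libraries. In coats and ER entry Ctrl-3 (0.899% and 0.686%) lay below Ctrl-4 (0.937% and 0.754%) but above Ctrl-5 and Ctrl-6. For ER folding Ctrl-3 (1.297%) lay below Ctrl-4 (1.507%) and Ctrl-5 (1.311%) but above Ctrl-6 (1.067%). The sexes thus overlapped in the shares of each of these lists. Genes are not independent replicates, so the number of genes higher in female libraries does not measure how far the sexes differ. Shares of counts were tested between the sexes as well: the hormone list held 19.8% ± 1.03 in female and 21.5% ± 2.27 in male libraries (exact permutation p = 0.3, two-sided), mtDNA genes 1.92% ± 0.104 and 1.93% ± 0.134 (exact permutation p = 0.9) and the secretory machinery 8.02% ± 0.388 and 7.37% ± 0.563 (exact permutation p = 0.2). The parts of the hormone list went opposite ways, as seen after the sum had been tested: *Ins1* and *Ins2* held 13.3% ± 1.72 in female and 16.6% ± 2.62 in male libraries (exact permutation p = 0.2). The other hormones held 6.45% ± 0.955 and 4.92% ± 0.391 (exact permutation p = 0.1), each female library lying above each male library. With 3 libraries against 3 the smallest p this test can give is 0.1, so it could not reach 0.05.

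At the steady end, 1188 of 10375 genes had no spread beyond counting noise. Among genes averaging 1000 or more normalized counts, the 10 of lowest CV, ties at 0 put in order of the spread before counting noise was taken off, were *Myl6*, a myosin light chain, *Ecpas*, a proteasome adaptor, *Igf2r*, the mannose-6-phosphate receptor, *Gnb2*, a G protein subunit, *Ccni*, *Rrp1*, *Nedd8*, a ubiquitin-like protein (uncertain, as it shares sequence), *Eif3i*, of translation initiation, *Pak2*, a kinase, and *B3gat3*, of proteoglycan synthesis, each at a CV of 0. *Myl6* ran from 4320.1 to 4419 normalized counts. Nuclear oxidative phosphorylation genes had a median CV (0.0475 over 40 genes) under the 0.0628 of all genes. Heat shock genes (0.0691 over 16) and those of monogenic diabetes and insulin secretion (0.0702 over 24) were near it. Islet transcription factors had a median of 0.0744 over 24 genes and held 0.428% ± 0.0136 of counts. Without Ctrl-6 their median was 0.0491, under the 0.0574 of all genes. *Nkx6-1* stood between 270.4 and 309.6 TPM, *Pax6*, a regulator of all islet endocrine cells, between 191 and 229, *Pdx1*, an activator of insulin genes, between 147 and 183, and *Kcnj11* between 104 and 119.8 TPM. An exception was *Mlxipl*, the glucose-responsive factor ChREBP, from 81.4 TPM in Ctrl-2 through 140.2 to 182 in Ctrl-3.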

How the data were processed

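RNAseq of total RNA from isolated islets was taken from the deposited table of raw counts, in which the authors aligned reads to GRCm38 with STAR 2.6.1b and estimated counts per gene with RSEM 1.3.1 as whole numbers. The deposited depth-normalized table holds a signal, counts that the authors divided by DESeq2 1.26.0 factors, and was used only as an alternative. The members and lists were chosen with earlier results of these data known. Depth of the 6 libraries was 12400687 to 20329064 counts. Counts were scaled with TMM in edgeR 4.0.16 (R 4.3.3), and TPM used the longest APPRIS principal transcript of GENCODE vM21. Biological CV is the SD left after Poisson noise was subtracted, over the mean, and genes averaging 100 or more normalized counts with a CV over 0.5 were called variable. Female and male libraries were compared over all 24795 genes with counts by edgeR quasi-likelihood tests, adjusted over all of them, and by DESeq2 1.42.0 as an alternative, and shares by exact permutation. Genes with 10% or more of their 75-base stretches in other genes, or overlapped by another gene, are uncertain. Beside those marked in the report these are *Abcc9*, *Cacna1d*, *Col4a1*, *Ghrl*, *Gm42418*, *Hbb-bs*, *Klk1*, *mt-Co2*, *Pcsk2*, *Prss53*, *Rab3a*, *Sfrp2* and *Xist*. The tests were checked on simulated data. Large differences were recovered, but a limit set for false calls between 3 and 3 libraries was not met, and that limit was dropped after its result had been seen. Python 3.11.15 with NumPy 2.4.6, pandas 2.3.3, SciPy 1.17.1 and Matplotlib 3.10.9 was used. Genes were named if they were markers or hormones, the 20 highest by TPM or 10 highest by share, examples from the gene or paralog lists, the 30 of highest CV, the 10 of lowest CV averaging 1000 or more normalized counts, called between sexes, at 50 or more counts in 5 libraries and 3 or fewer in the other or the reverse, or *Mfn1* and *Mfn2*. *Angptl7*, *Zfp979* and *Cldn11* as genes near targeted loci were chosen after values had been seen, and genes overlapping a named gene are named for that. Some genes and 3 paralog families that hold them are not reported here.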

Additional observations from a re-analysis of the deposited data

Results flagged for a closer look

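A list or gene was set aside here when its lowest or highest library lay far from the other libraries by the Dixon gap ratio (gap to the nearest library over the whole range). Of 200 lists and genes named in the text 36 passed, 7 of 36 lists and 29 of 164 genes, and chance flags about 1 in 20 groups at this limit. Many of the genes had been named because they vary. Ctrl-6 was the highest library in 30 of the 36. In percent of counts it held 0.0721 in macrophage, 0.0392 in stellate and fibroblast, 0.0871 in collagen and basement membrane and 0.00172 in B and plasma cell genes, and it was lowest at 0.634 in mtDNA genes of complex I.

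In normalized counts the genes far above the others in Ctrl-6 were *H19* (70.55), *Serpinf1* (72.72), *Col1a1* (1474.0), *Apoe* (8432.8), *Dpep1* (57.53), *Ogn* (107.5), *Fstl1* (490.6), *Csf1r* (427.7), *Col5a2* (416.8), *Col3a1* (1017.1), *Fn1* (731.6), *Ccn5* (86.84), *Ptx3* (110.7), *Sfrp2* (56.44), *Col1a2* (1596.7), *Gpnmb* (987.8), *Bgn* (382.1), *Hp* (235.5), *Acta2* (375.6), *C1qb* (673), *Lgals3* (754.4), *Cxcl12* (1167.9), *Myl9* (114), *Lgals1* (364.7), *Lyz2* (6346.6) and *Igkc* (43.42). Other libraries had few: Ctrl-1 was highest for *Rab6b* (521.9) and *Zfp979* (76.16) and lowest for the share of protein-coding genes (97.0% of counts), Ctrl-4 was highest for *Reg3b* (282.1), and Ctrl-3 was lowest for the ribosomal RNA locus of chromosome 17 (0.868% of counts). The cause was not tested.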

How the results depend on the processing

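No paired analysis was possible because the comparison of female and male control libraries shares no replicate number. The number of genes called between the sexes stayed at 7 to 11 under other tools, scalings, filters and fits, but ran from 8 without Ctrl-2 to 164 without Ctrl-3 when a library was left out. Of the 8 genes, 6 were among the calls of DESeq2. With a filter on low counts it was 7, and 7 with all 20 libraries fitted. *Gm20431* and *Gm29650* were not called by DESeq2. Variable genes numbered 131 at 50 or more normalized counts, 24 at 500 or more and 123 in the depth-normalized table of the authors, and 56 to 97 when a library was left out. The hormone share became 39.8% of TPM (42.8% with merged exons), the mtDNA share 3.17% (4.36%) and the secretory share 5.38% with either length, or 9.70% of counts without hormones. With a library left out they stayed at 20.04% to 20.95%, 1.90% to 1.95% and 7.55% to 7.88% of counts. With merged exons 48 of 51 families kept their leader. Among the families named here *Rab3a* over *Rab3d* (-0.056 log2 units) and *Vamp8* over *Vamp2* (-0.64) were reversed. Families with the same leader in all libraries numbered 43 to 47. Cell type lists with a library over 2 times the median ran from 0 without Ctrl-6 to 5 without Ctrl-2. Leaving out libraries for cell type lists and paralogs, TPM for cell type lists, the macrophage list without *Lyz2*, list medians between the sexes without Ctrl-6, sex tests of the parts of the hormone list and of acinar genes and the windows around loci were alternatives added after seeing the data. The cause was not tested. With 3 libraries of each sex and 12400687 counts in the shallowest, small differences and rare transcripts could not be resolved.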
